A study of Mus musculus with 7 samples.

Results

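Smco4, Ccdc141, Trib2, Tesc and Cd2ap are 5 of the 27998 genes counted in spleen T cells of C57bl/6 mice infected with LCMV Arm, the Armstrong strain of lymphocytic choriomeningitis virus. They were chosen because their levels were lower in virus-specific helper cells that had lost Thpok than in cells that had kept it. Their values in that contrast are therefore a description and carry no test, while their values across lineage, day and cell state come from other contrasts. The contrasts of day, and of cell states among virus-specific cells, use the same libraries as the choice and are not independent of it. Droplet-based 3' single-cell RNA sequencing gave 7 libraries of sorted CD44high cells, each from 1 capture well by its barcode suffixes except replicate 1 of the total cells, which sums 3 wells. The first 5 hold cells that bind the GP66:I-Ab tetramer, the class II molecule I-Ab loaded with a peptide of the virus. They are 1 Thpok-deleted library (Ox40-Cre+ Thpokfl/fl RosaYFP+), 1 Thpok-sufficient library (Ox40-Cre+ Thpokwt/wt RosaYFP+) and 1 wild type library at day 7 of infection, and 1 Thpok-deleted and 1 Thpok-sufficient library at day 30. The other 2, replicates 1 and 2, hold total activated T cells of day 7 wild type spleens, for which CD4+ cells and CD8+ cells were sorted in turn and then mixed 50/50. The sources used here give neither ages nor the number of animals behind a library. Cre under the Ox40 promoter acts in T cells once they are activated, so that the cells developed with Thpok. Both Cre groups were gated on the yellow reporter, which the wild type mice lack. A CD4+ gate is named for the wild type GP66+ library alone. With 1 library per genotype and day, p values of genotype and day rest on the spread between libraries, which may be technical in part. Those between classes of the same libraries can reflect less than the spread between replicates.

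Thpok, encoded by Zbtb7b, is a zinc finger transcription factor that commits developing T cells to the CD4 helper lineage and holds back genes of the CD8 lineage. In activated helper cells it keeps the helper identity, and during this infection such cells become mainly Th1 cells, follicular helper cells that assist B cells, and precursors of memory cells. The 5 genes have no shared pathway and are little studied in helper cells. Smco4 encodes a small membrane protein with coiled coils, whose function is poorly known. Ccdc141 encodes a coiled-coil protein studied in migrating mouse neurons, where it acts at the centrosome. Trib2 is a Tribbles pseudokinase, a scaffold that brings C/EBP factors to the ubiquitin ligase COP1. Tesc encodes tescalcin, a calcium-binding protein that binds the sodium and proton exchanger NHE1 and inhibits the phosphatase calcineurin. Cd2ap encodes an adaptor that binds the tail of the adhesion receptor CD2 and links it to actin.

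The genes lie apart in the genome, on GRCm38 at chr9:15493432-15545260 on the plus strand (Smco4, ENSMUSG00000058173), chr2:77009902-77170636 on the minus strand (Ccdc141, ENSMUSG00000044033), chr12:15791727-15816922 on the minus strand (Trib2, ENSMUSG00000020601), chr5:118027743-118061878 on the plus strand (Tesc, ENSMUSG00000029359) and chr17:42792951-42876665 on the minus strand (Cd2ap, ENSMUSG00000061665). All 5 are protein coding, and the only genes annotated within them are a microRNA gene each in Ccdc141 and Trib2 that shares no exon and was not counted. The sequences just ahead of the starts of 4 of them are shown so that their letters can be compared for shared motifs; for Cd2ap, 9 bases of the window lie outside the GENCODE exon, and none is printed. They come from RefSeq (GRCm38.p6), 5′ to 3′ on the gene's strand, from up to 250 bases before the start and without bases that GENCODE places in an exon; capitals mark matches to a searched motif.
Smco4, chr9:15493182-15493431, plus strand: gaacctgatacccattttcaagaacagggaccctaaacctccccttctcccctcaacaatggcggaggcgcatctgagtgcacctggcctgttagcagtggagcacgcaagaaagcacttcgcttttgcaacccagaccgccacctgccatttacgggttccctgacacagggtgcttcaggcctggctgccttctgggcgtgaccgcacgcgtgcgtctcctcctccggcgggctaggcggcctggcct
Ccdc141, chr2:77170637-77170885, minus strand: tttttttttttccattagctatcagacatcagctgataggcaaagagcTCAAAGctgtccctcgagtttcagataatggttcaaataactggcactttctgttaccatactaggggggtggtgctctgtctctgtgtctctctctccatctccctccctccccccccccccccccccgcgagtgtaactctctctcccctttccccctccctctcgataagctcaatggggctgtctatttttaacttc
Trib2, chr12:15816923-15817035, minus strand: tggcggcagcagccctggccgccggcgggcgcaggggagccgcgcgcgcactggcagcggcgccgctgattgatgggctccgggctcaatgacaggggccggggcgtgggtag
Tesc, chr5:118027493-118027742, plus strand: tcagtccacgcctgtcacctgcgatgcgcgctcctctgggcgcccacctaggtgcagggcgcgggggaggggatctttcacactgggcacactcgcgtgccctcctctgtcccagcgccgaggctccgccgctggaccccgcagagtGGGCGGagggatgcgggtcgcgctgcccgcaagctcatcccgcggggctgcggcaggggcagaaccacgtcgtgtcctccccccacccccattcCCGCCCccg
The motifs searched on both strands of the full 250 bases of all 5 genes were TGTGGT, bound by Runx factors, CTTTGA, bound by Tcf and Lef factors, GGGCGG, bound by Sp and Klf factors, and CCGGAA, bound by Ets factors. Ccdc141 holds the Tcf and Lef motif once, read as TCAAAG with its first base 202 bases ahead of the start, and 13.8% of the 32851 windows of this length in the RefSeq table hold it. Tesc holds GGGCGG at 103 bases and its reverse complement, CCGCCC, at 9 bases, and Trib2 holds GGGCGG with first bases at 138 and 120 bases. The first of these begins on the last printed base of Trib2 and runs on into the stretch that GENCODE counts as exon, the second lies within that stretch, and neither is in capitals. That motif is in 32.7% of all windows. Smco4 and Cd2ap hold none of the 4 motifs, and none of the 5 genes holds the Runx or the Ets motif, which 14.0% and 12.0% of windows hold. No motif was thus common to the 5 windows, which says nothing about what binds there.

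Cells kept numbered 725 to 6845 per library, with 1551772 to 32985497 unique molecular identifiers (UMIs, each 1 captured transcript) and medians of 2017 to 5900 UMIs per cell, lowest at day 30. Levels are given as CPM, a gene's UMIs scaled to a common total of the summed cells, with exact Poisson intervals at 95% that cover counting error only. Zbtb7b followed the labels, with 1 UMI each in the Thpok-deleted libraries of day 7 and day 30, against 389 UMIs in the Thpok-sufficient and 388 in the wild type GP66+ library of day 7 and 32 in the Thpok-sufficient library of day 30. B-like and myeloid-like clusters were left out. Cell barcodes shared by a pair of libraries numbered 1 to 25, the most in the wild type GP66+ library and replicate 1 of the total cells, where a random draw would give 20.5. The Thpok-sufficient library of day 7 and replicate 2 of the total cells shared 15, where a random draw would give 6.20, and the Thpok-deleted library of day 7 and the Thpok-sufficient library of day 30 shared 5, where it would give 1.30. The Thpok-deleted library of day 30 held 6232 CPM of 4 red cell genes, against at most 206 CPM in any other library.

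In the libraries of total activated cells, which are not in the contrast of genotypes, all 5 genes were lower in CD8-like cells, which had UMIs of Cd8a or Cd8b1 but none of Cd4, than in CD4-like cells, which had Cd4 UMIs and none of either Cd8 gene. Replicate 1 gave 3480 CD8-like and 1440 CD4-like cells, and replicate 2 gave 1074 and 550. Smco4 stood at 22.2 and 26.2 CPM in the CD8-like cells of replicates 1 and 2, against 231 and 182 CPM in the CD4-like cells. No CD8-like value came near a CD4-like one, and the fitted change was the widest of the 5, although in replicate 2 alone Ccdc141 had the wider ratio (log2 fold change −3.07 ± 0.09 (SE), adjusted p = 6.62e-81 by edgeR's quasi-likelihood test). Ccdc141 had 1.88 and 2.08 CPM in CD8-like cells, against 12.9 and 18.1 CPM in CD4-like cells. The CD8-like values rest on 33 and 13 UMIs and lie well below both CD4-like ones (log2 fold change −2.80 ± 0.24, adjusted p = 1.29e-22, edgeR). Trib2 had 7.70 and 8.96 CPM in CD8-like cells, against 48.8 and 48.0 CPM in CD4-like cells, with close replicates in each class (log2 fold change −2.49 ± 0.14, adjusted p = 6.13e-41, edgeR). Tesc had 24.1 and 21.6 CPM in CD8-like cells, against 122 and 82.2 CPM in CD4-like cells. Its CD4-like replicates differed from each other beyond their counting intervals but both lay far above the CD8-like ones (log2 fold change −2.11 ± 0.10, adjusted p = 5.07e-52, edgeR). Cd2ap had 5.53 and 6.08 CPM in CD8-like cells, against 18.4 and 16.8 CPM in CD4-like cells, the smallest ratio of the 5 in both replicates (log2 fold change −1.56 ± 0.19, adjusted p = 5.59e-13, edgeR).

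Of the 5 genes, 5 were thus called lower in CD8-like cells. Of all 10201 genes tested, 38.3% were called, 18.8% higher and 19.5% lower, and the median log2 fold change was −2.49 for the 5 genes and −0.02 over all genes. The fit had 1 residual degree of freedom, and the size of its p values depended on the setting. For Smco4 the log2 ratio was −3.38 in replicate 1 and −2.80 in replicate 2, a gap wider than the standard error of 0.09. For Tesc it was −2.34 and −1.93, with a standard error of 0.10. These p values therefore do not measure the full spread between replicates. With no replicate block the adjusted p by edgeR ran from 0.000845 for Smco4 to 0.00702 for Cd2ap. In sums over cells, fewer cells that express a gene and less RNA per cell cannot be told apart. Empty droplets of the total libraries also held the transcripts, for Smco4 122 CPM in replicate 1 and 139 CPM in replicate 2. That is above the CD8-like and below the CD4-like level, and the part of free RNA in the CD8-like counts was not tested.

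**Figure D1:**
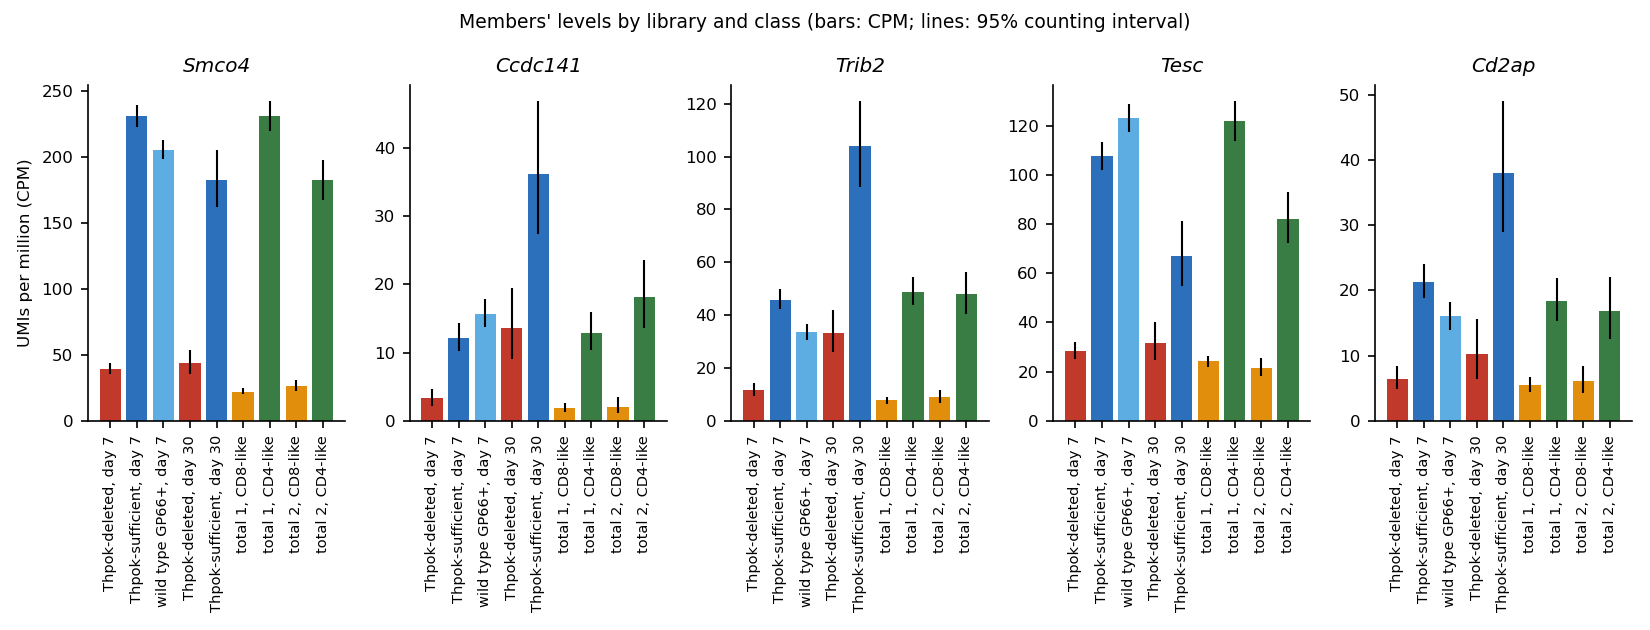
Level of each gene in CPM in all T cells of the 5 GP66+ libraries and in CD8-like and CD4-like cells of the 2 total libraries; bars are the level and lines the 95% counting interval, and each panel has its own axis from 0. For Smco4 the Thpok-deleted bars (red) stand at 39.2 and 44 CPM and the CD8-like ones (orange) at 22.2 and 26.2 CPM, against 182 CPM or more in the other bars; for Ccdc141 the Thpok-deleted bar of day 30, at 13.6 CPM, stands above the Thpok-sufficient bar of day 7, at 12.2 CPM.

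In the contrast that chose the genes, all T cells of each GP66+ library were compared. Smco4 had 39.2 CPM in Thpok-deleted cells at day 7, against 231 CPM in Thpok-sufficient and 205 CPM in wild type cells, and at day 30 it had 44 CPM in Thpok-deleted cells, against 183 CPM in Thpok-sufficient cells. Both Thpok-deleted values lie far below every value of a library with Thpok. Empty droplets held 33.8 CPM and 72.3 CPM of Smco4 in the Thpok-deleted libraries of day 7 and day 30, against 253 CPM in the Thpok-sufficient and 255 CPM in the wild type library of day 7 and 226 CPM in the Thpok-sufficient library of day 30; the part of this free RNA in the levels was not tested. Ccdc141 had 3.28 CPM in Thpok-deleted cells at day 7, against 12.2 CPM in Thpok-sufficient and 15.7 CPM in wild type cells, and at day 30 it had 13.6 CPM in Thpok-deleted cells, against 36.1 CPM in Thpok-sufficient cells. Its groups overlap across days, since the day 30 Thpok-deleted value exceeds the day 7 Thpok-sufficient one, but not within a day. Trib2 had 11.6 CPM in Thpok-deleted cells at day 7, against 45.8 CPM in Thpok-sufficient and 33.6 CPM in wild type cells, and at day 30 it had 33.2 CPM in Thpok-deleted cells, against 104 CPM in Thpok-sufficient cells. The day 30 Thpok-deleted and day 7 wild type values nearly meet. Tesc had 28.4 CPM in Thpok-deleted cells at day 7, against 108 CPM in Thpok-sufficient and 123 CPM in wild type cells, and at day 30 it had 31.8 CPM in Thpok-deleted cells, against 67.1 CPM in Thpok-sufficient cells. For this gene the libraries do not overlap, and the gap is narrower at day 30 than at day 7. Empty droplets held 33.8 and 44.2 CPM of Tesc in the Thpok-deleted libraries of day 7 and day 30, each above the level in cells. They held 86.6 and 40.8 CPM in the Thpok-sufficient libraries of day 7 and day 30, and 136 CPM in the wild type library. The part of this free RNA in the Tesc levels was not tested. Cd2ap had 6.45 CPM in Thpok-deleted cells at day 7, against 21.3 CPM in Thpok-sufficient and 16.0 CPM in wild type cells, and at day 30 it had 10.3 CPM in Thpok-deleted cells, against 38.1 CPM in Thpok-sufficient cells. The Thpok-deleted values, from 57 and 22 UMIs, lie below all others.

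Fitted over both days, the log2 fold changes were −2.39 for Smco4, −1.88 for Ccdc141, −1.81 for Trib2, −1.73 for Tesc and −1.73 for Cd2ap. In each fit with genotype as a term, the wild type library counted as Thpok-sufficient, although its sort gates differed. In the fit across 10793 genes 3 of the 5 were past an adjusted p of 0.05, where 0.889% of all genes were called, 0.602% higher and 0.287% lower; the genes were picked on this contrast, so nothing is read from that count. Thpok-deleted libraries contain cells with Cd8 transcripts, and levels were also taken in cells with Cd4 and no Cd8 UMI. There Smco4 had 42.9 CPM in Thpok-deleted cells of day 7, against 237 CPM in Thpok-sufficient and 209 CPM in wild type cells, and 64.3 CPM in Thpok-deleted cells of day 30, against 200 CPM in Thpok-sufficient cells. Tesc had 29.8 CPM in Thpok-deleted cells of day 7, against 109 CPM in Thpok-sufficient and 125 CPM in wild type cells, and 28.0 CPM in Thpok-deleted cells of day 30, against 66.5 CPM in Thpok-sufficient cells. In these cells the libraries of both genes keep apart by genotype. Trib2 had 10.4 CPM in Thpok-deleted cells of day 7, against 44.9 CPM in Thpok-sufficient and 33.6 CPM in wild type cells, and 37.9 CPM in Thpok-deleted cells of day 30, against 95.9 CPM in Thpok-sufficient cells. Its Thpok-deleted value of day 30 is here above the wild type value of day 7. Ccdc141 had 3.81 CPM in Thpok-deleted cells of day 7, against 12.0 CPM in Thpok-sufficient and 14.5 CPM in wild type cells, and 8.24 CPM in Thpok-deleted cells of day 30, against 43.1 CPM in Thpok-sufficient cells. Cd2ap had 6.58 CPM in Thpok-deleted cells of day 7, against 20.9 CPM in Thpok-sufficient and 16.2 CPM in wild type cells, and 14.8 CPM in Thpok-deleted cells of day 30, against 43.1 CPM in Thpok-sufficient cells. The day 30 Thpok-deleted values of these genes rest on 5 UMIs for Ccdc141 and 9 for Cd2ap. Within the Thpok-deleted library of day 7 itself, Smco4 had 32.8 CPM in the 243 CD8-like cells, against 42.9 CPM in the 405 CD4-like cells, a ratio of 0.764 with a counting interval of 0.543 to 1.06. For the other 4 genes that ratio was 0.810 to 0.975, each with an interval that holds 1. At day 30 the Trib2 ratio was 0.151 with an interval of 0.00367 to 0.930, from 1 UMI in 54 CD8-like cells, against 23 UMIs in 177 CD4-like cells.

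Other markers moved with this contrast. The summed level of 10 Th1 genes was 16535 CPM in Thpok-deleted cells of day 7, against 2874 CPM in Thpok-sufficient and 2578 CPM in wild type cells, and 26298 CPM in Thpok-deleted cells of day 30, against 3125 CPM in Thpok-sufficient cells. The summed level of 12 follicular helper genes was 614 CPM in Thpok-deleted cells of day 7, against 1627 CPM in Thpok-sufficient and 1598 CPM in wild type cells, and 852 CPM in Thpok-deleted cells of day 30, against 985 CPM in Thpok-sufficient cells. Of that list 1 gene was at 0 in each Thpok-deleted library, and no gene of either list was at 0 in the others. The summed level of 5 natural killer cell genes was 62.0 CPM in Thpok-deleted cells of day 7, against 3.94 CPM in Thpok-sufficient and 4.49 CPM in wild type cells, and 90.3 CPM in Thpok-deleted cells of day 30, against 9.68 CPM in Thpok-sufficient cells. The summed level of 10 memory and homing genes was 1114 CPM in Thpok-deleted cells of day 7, against 2106 CPM in Thpok-sufficient and 1440 CPM in wild type cells, and 2500 CPM in Thpok-deleted cells of day 30, against 3399 CPM in Thpok-sufficient cells. The summed level of 4 regulatory T cell genes was 191 CPM in Thpok-deleted cells of day 7, against 355 CPM in Thpok-sufficient and 388 CPM in wild type cells, but 501 CPM in Thpok-deleted cells of day 30, against 241 CPM in Thpok-sufficient cells. Cells with a Cxcr6 and no Ccr7 UMI made up 50.5% of Thpok-deleted T cells of day 7, against 14.9% of Thpok-sufficient and 16.7% of wild type cells, and 39.3% of Thpok-deleted cells of day 30, against 8.01% of Thpok-sufficient cells. Those with a Ccr7 and no Cxcr6 UMI made up 5.92% of Thpok-deleted T cells of day 7, against 24.8% of Thpok-sufficient and 26.9% of wild type cells, and 9.25% of Thpok-deleted cells of day 30, against 16.7% of Thpok-sufficient cells. Such shares move with depth and free RNA, and were not thinned to a common depth. The part of these shifts in the levels of the 5 genes was not tested over whole libraries, and the next comparisons give the levels within cell states.

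Ordered by level, the libraries and classes fell into steps that differ by gene; neighbours within a step have counting intervals that meet. For Smco4 the top step was the CD4-like cells of replicate 1 and the Thpok-sufficient library of day 7, and the next ran through wild type GP66+ cells, the Thpok-sufficient library of day 30 and the CD4-like cells of replicate 2. Far below came both Thpok-deleted libraries, and a further step down the CD8-like cells. For Ccdc141 the Thpok-sufficient library of day 30 stood alone at the top, the Thpok-deleted library of day 30 fell in the middle step with the day 7 cells that kept Thpok, and that of day 7 shared the bottom step with the CD8-like cells. For Trib2 the Thpok-sufficient library of day 30 again stood alone, and the Thpok-deleted library of day 30 shared a step with wild type GP66+ cells while that of day 7 shared the bottom step. For Tesc the top step was wild type GP66+ cells and the CD4-like cells of replicate 1, and both Thpok-deleted libraries shared the bottom step with the CD8-like cells. For Cd2ap the Thpok-sufficient library of day 30 stood alone, and all others formed a chain in which each neighbour's interval met the next: that of the Thpok-deleted library of day 30, 6.45 to 15.6 CPM, met that of wild type GP66+ cells, 14.0 to 18.2 CPM.

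None of the 5 genes passed the test between tetramer-positive cells and helper cells as a whole. The comparison set the day 7 GP66+ libraries of Thpok-sufficient and of wild type cells against the CD4-like cells of the total libraries. Of the 5 genes 0 were called with edgeR, 0 had an unadjusted p under 0.05 and 0 were called by DESeq2, where edgeR called 0.502% of 10568 genes, 0.483% higher and 0.0189% lower. The log2 fold changes lay between −0.21 ± 0.22 (SE) for Trib2 and 0.23 ± 0.22 for Tesc, with adjusted p between 0.699 and 0.919. The standard errors of 0.19 to 0.24 mean that changes of this size were not detectable, which does not show that the levels are equal.

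The time after infection separated the genes. Ccdc141, Trib2 and Cd2ap were higher at day 30 than at day 7 in the fit with genotype as a term, and Smco4 and Tesc did not pass the test. The wild type library again counted as Thpok-sufficient in this fit. Ccdc141 had 13.6 CPM in the Thpok-deleted and 36.1 CPM in the Thpok-sufficient library of day 30, against 3.28 and 12.2 CPM in those of day 7 and 15.7 CPM in wild type cells (log2 fold change 1.82 ± 0.22 (SE), adjusted p = 0.0123, edgeR). The Thpok-deleted library of day 30 was above that of day 7, and the Thpok-sufficient one was above both day 7 libraries with Thpok. The same held for Trib2 (log2 fold change 1.62 ± 0.22, adjusted p = 0.0148) and Cd2ap (1.10 ± 0.28, adjusted p = 0.0460), although the counting intervals of Cd2ap in the Thpok-deleted pair, 6.45 to 15.6 CPM at day 30 and 4.88 to 8.35 CPM at day 7, overlap. Empty droplets of the Thpok-sufficient libraries held 122 CPM of Trib2 at day 30, above the 104 CPM in cells, and 51.6 CPM at day 7. They held 31.2 and 22.1 CPM of Cd2ap and 19.2 and 9.22 CPM of Ccdc141 at day 30 and day 7. Those of the Thpok-deleted libraries held 32.1 and 8.45 CPM of Trib2. The part of this free RNA in the levels was not tested. Smco4 had a log2 fold change of 0.10 ± 0.16 (adjusted p = 0.671) and Tesc of −0.20 ± 0.21 (adjusted p = 0.528). Tesc was lower in the Thpok-sufficient library of day 30 than in either day 7 library with Thpok, and slightly higher in the Thpok-deleted library of day 30 than in that of day 7. Of the 5 genes 3 were called, where 21.8% of 10793 genes were called in either direction and 9.93% were higher at day 30; the median log2 fold change was 1.10 for the 5 genes and 0.03 over all genes.

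The change with day rests on few libraries. Leaving out either Thpok-deleted library leaves the other to set the genotype term by itself. Both omissions then compare the days in the libraries with Thpok alone, and are not separate checks. Without the Thpok-deleted library of day 7, the Thpok-sufficient library of day 30 or the Thpok-deleted library of day 30, edgeR called 0 genes of the whole table. Ccdc141 then had log2 fold changes of 1.65, 2.05 and 1.65 (adjusted p = 0.0843, 0.110 and 0.0772), Trib2 of 1.65, 1.52 and 1.65 (0.0923, 0.148 and 0.0861) and Cd2ap of 1.29, 0.68 and 1.29 (0.117, 0.398 and 0.111). Cd2ap also lost its call without the Thpok-sufficient library of day 7 (1.22, adjusted p = 0.0708) and in CD4-like cells alone (1.38, adjusted p = 0.0537). With cells of at least 1000 genes, Trib2 alone was called (1.55, adjusted p = 0.0372). Day 30 libraries were also the shallow ones, with medians of 2434 UMIs per cell in Thpok-deleted and 2022 in Thpok-sufficient T cells, against 5287 to 5903 at day 7 in the GP66+ libraries, so that day and depth cannot be told apart. The summed level of the memory and homing genes, given above, was likewise higher in each day 30 library than in the day 7 library of the same genotype; its part in the result was not tested.

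The test of whether the genotype difference itself changed with day called 0 of 11313 genes with edgeR, with 546 higher and 197 lower at an unadjusted p under 0.05, and 6 genes with DESeq2. None of the 5 genes was called by either. Tesc had the lowest p of the 5 (log2 difference 0.68 ± 0.24, unadjusted p = 0.0554, adjusted p = 0.703, edgeR), with 0.264 of the Thpok-sufficient level left in Thpok-deleted cells at day 7 and 0.474 at day 30.

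**Figure D2:**
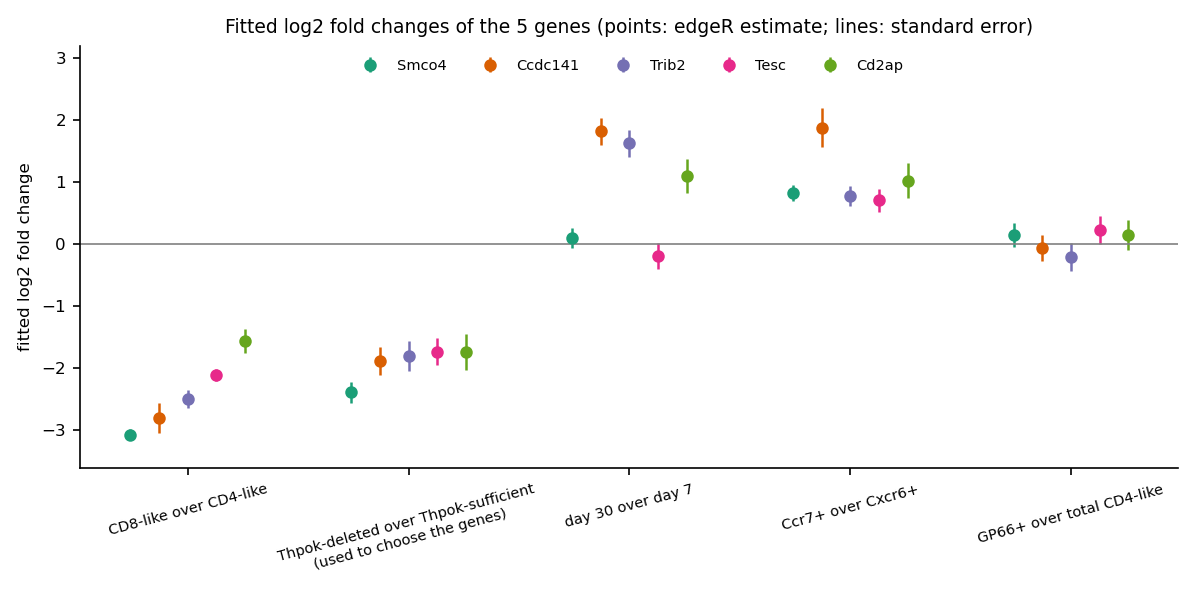
Fitted log2 fold change of each gene (vertical axis) in 5 comparisons (horizontal axis), with points at the edgeR estimate and lines for the standard error. All 5 genes lie below 0 in CD8-like over CD4-like cells (−3.07 to −1.56) and above 0 in Ccr7+ over Cxcr6+ cells (0.70 to 1.87), while day 30 over day 7 splits Ccdc141, Trib2 and Cd2ap (1.10 to 1.82) from Smco4 and Tesc (0.10 and −0.20); the comparison of genotypes chose the genes and is drawn as a description.

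Within the GP66+ libraries, cells with a Ccr7 UMI and no Cxcr6 UMI were compared with cells with a Cxcr6 UMI and no Ccr7 UMI. Ccr7 is the receptor that guides T cells to lymphoid zones and marks memory precursors, and Cxcr6 is a chemokine receptor of Th1 cells. All 5 genes were higher in Ccr7+ than in Cxcr6+ cells with the library as block, where 10.6% of 8890 genes were called in either direction and 5.3% were higher. The median log2 fold change was 0.82 for the 5 genes and 0.02 over all genes.

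Smco4 had 62.3 CPM in Ccr7+ and 35.1 CPM in Cxcr6+ cells of the Thpok-deleted library of day 7, 233 and 124 CPM in the Thpok-sufficient and 200 and 139 CPM in the wild type library. At day 30 it had 70.2 CPM in Ccr7+ and 27.2 CPM in Cxcr6+ cells of the Thpok-deleted library, and 176 and 142 CPM in the Thpok-sufficient library. Ccr7+ cells were higher in 5 of 5 libraries (log2 fold change 0.82 ± 0.13 (SE), adjusted p = 0.000361, edgeR). Thpok-deleted Ccr7+ cells still held less Smco4 than Cxcr6+ cells with Thpok at either day, although at day 30 the counting intervals of that pair meet.

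Ccdc141 had 11.7 CPM in Ccr7+ and 3.29 CPM in Cxcr6+ cells of the Thpok-deleted library of day 7, 19.97 and 2.90 CPM in the Thpok-sufficient and 21.0 and 5.82 CPM in the wild type library. At day 30 it had 7.39 CPM in Ccr7+ and 8.29 CPM in Cxcr6+ cells of the Thpok-deleted library, from 2 and 7 UMIs, and 35.8 and 22.4 CPM in the Thpok-sufficient library. This gene had the widest fitted difference between the states (log2 fold change 1.87 ± 0.31, adjusted p = 0.000653, edgeR). Its level was higher in Ccr7+ cells in 4 of 5 libraries. In Cxcr6+ cells of day 7 its level in Thpok-deleted cells was 1.14 times that in Thpok-sufficient cells, with a counting interval of 0.417 to 3.58 from 15 and 6 UMIs. In Ccr7+ cells of day 7 that ratio was 0.585, with a counting interval of 0.207 to 1.35 from 6 and 62 UMIs. A genotype difference of Ccdc141 within either state at day 7 was therefore not detectable at this depth.

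Trib2 had 11.7 CPM in Ccr7+ and 12.3 CPM in Cxcr6+ cells of the Thpok-deleted library of day 7, 56.7 and 30.4 CPM in the Thpok-sufficient and 44.1 and 28.7 CPM in the wild type library. At day 30 it had 59.2 CPM in Ccr7+ and 28.4 CPM in Cxcr6+ cells of the Thpok-deleted library, and 71.5 and 52.3 CPM in the Thpok-sufficient library. Ccr7+ cells were higher in 4 of 5 libraries, with near equal levels in the Thpok-deleted library of day 7 (log2 fold change 0.77 ± 0.16, adjusted p = 0.00363, edgeR). Among Ccr7+ cells of day 30 the Thpok-deleted level was 0.827 times the Thpok-sufficient one (counting interval 0.406 to 1.65), against 0.206 times (0.0746 to 0.458) among those of day 7; this difference between days was not tested.

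Tesc had 19.5 CPM in Ccr7+ and 31.8 CPM in Cxcr6+ cells of the Thpok-deleted library of day 7, 119 and 60.8 CPM in the Thpok-sufficient and 122 and 64.0 CPM in the wild type library. At day 30 it had 22.2 CPM in Ccr7+ and 32.0 CPM in Cxcr6+ cells of the Thpok-deleted library, and 48.8 and 59.8 CPM in the Thpok-sufficient library. The fit called it higher in Ccr7+ cells (log2 fold change 0.70 ± 0.19, adjusted p = 0.0205, edgeR), but 2 of 5 libraries show that direction, the deep day 7 libraries with Thpok. Both Thpok-deleted libraries and the Thpok-sufficient library of day 30 point the other way, with counting intervals that overlap between the states.

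Cd2ap had 3.89 CPM in Ccr7+ and 6.59 CPM in Cxcr6+ cells of the Thpok-deleted library of day 7, 23.5 and 9.66 CPM in the Thpok-sufficient and 19.0 and 7.37 CPM in the wild type library. At day 30 it had 3.70 CPM in Ccr7+ and 8.29 CPM in Cxcr6+ cells of the Thpok-deleted library, from 1 and 7 UMIs, and 48.8 and 29.9 CPM in the Thpok-sufficient library. The 3 libraries with Thpok were higher in Ccr7+ cells and the 2 without it lower (log2 fold change 1.03 ± 0.28, adjusted p = 0.0228, edgeR). The reversed Thpok-deleted values rest on 3 UMIs in 146 Ccr7+ cells, and in both libraries the ratio of the states has a counting interval that holds 1. The same is true of the Thpok-sufficient library of day 30, from 15 and 4 UMIs. In Cxcr6+ cells of day 7 the Thpok-deleted level was 0.682 times the Thpok-sufficient one (counting interval 0.375 to 1.27). Against wild type cells it was 0.893 times (0.487 to 1.68), so that a genotype difference of Cd2ap was not detectable there.

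**Figure D3:**
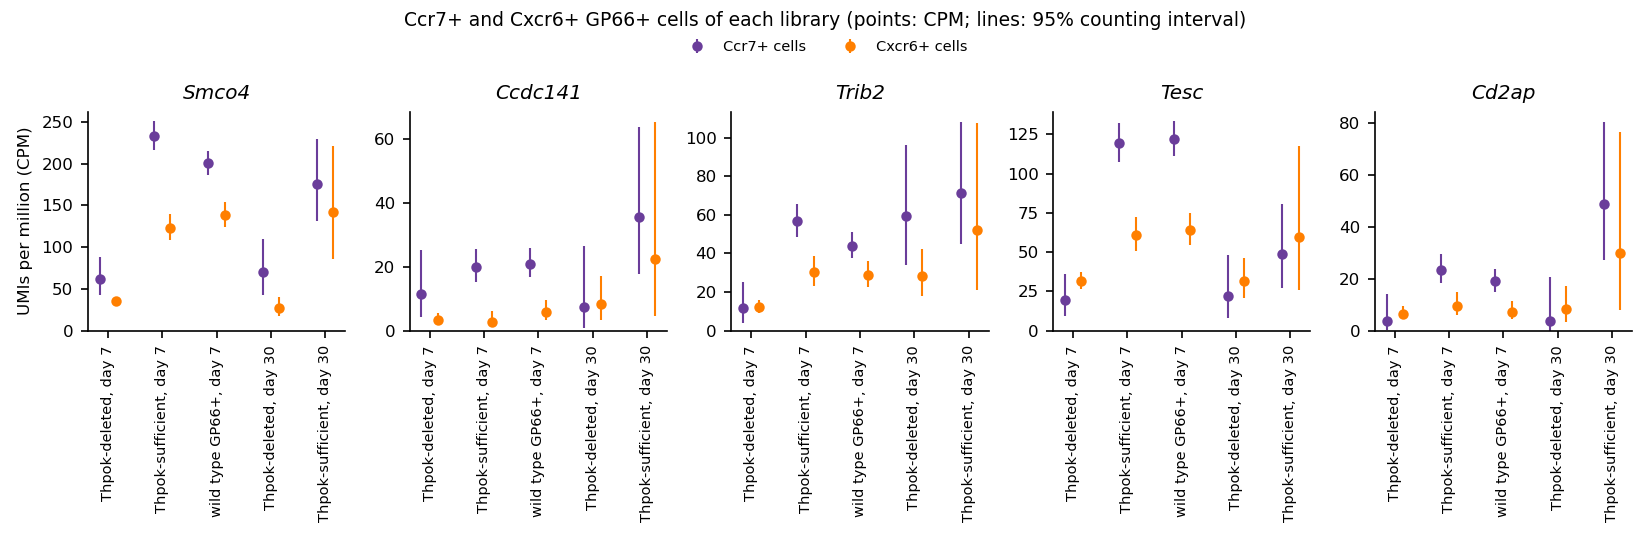
Level of each gene in CPM in Ccr7+ (purple) and Cxcr6+ (orange) cells of each GP66+ library, with 95% counting intervals and an axis from 0 in each panel. Ccr7+ points lie above Cxcr6+ points in all 5 libraries for Smco4, in 4 for Ccdc141 and Trib2, in 3 for Cd2ap and in 2 for Tesc.

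Some of these calls were lost without 1 of the day 7 libraries with Thpok. Without the wild type library, edgeR gave Trib2 0.80 (adjusted p = 0.0616), Tesc 0.39 (0.563) and Cd2ap 0.75 (0.384) on the log2 scale, and 2 of 5 genes stayed past the threshold. Without the Thpok-sufficient library of day 7, 1 stayed, Smco4, with Ccdc141 at 1.49 (adjusted p = 0.0567), Trib2 at 0.63 (0.155), Tesc at 0.39 (0.564) and Cd2ap at 0.74 (0.449). DESeq2 called 3 of the 5, with Tesc at 0.31 (adjusted p = 0.782) and Cd2ap at 0.75 (adjusted p = 0.429). The median UMIs per cell were 5838 in Ccr7+ and 5899 in Cxcr6+ cells of the Thpok-deleted library of day 7, 5356 and 5968 in the Thpok-sufficient and 5760 and 6122 in the wild type library. At day 30 they were 2952 in Ccr7+ and 2394 in Cxcr6+ cells of the Thpok-deleted library, and 2344 and 2025 in the Thpok-sufficient library. In the Thpok-sufficient library of day 30 the ratio of Ccr7+ to Cxcr6+ cells had a counting interval that holds 1 for each gene. Its 58 Cxcr6+ cells held 19 UMIs of Smco4, 3 of Ccdc141, 7 of Trib2, 8 of Tesc and 4 of Cd2ap.

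The same comparison in the CD4-like cells of the total libraries, added after the data were seen, used other cells and again called 5 of 5 genes higher in Ccr7+ cells, where 13.4% of 7698 genes were called in either direction and 5.99% were higher. Ccdc141 had 22.3 and 33.1 CPM in Ccr7+ cells of replicates 1 and 2, against 5.07 and 3.22 CPM in Cxcr6+ cells (log2 fold change 2.60, adjusted p = 5.89e-05, edgeR). Trib2 had 60.0 and 67.7 CPM in Ccr7+ cells, against 26.6 and 29.0 CPM in Cxcr6+ cells (1.23, adjusted p = 0.000341), and Cd2ap had 20.4 and 28.6 CPM, against 7.60 and 9.67 CPM (1.52, adjusted p = 0.00685). Smco4 had 200 and 185 CPM in Ccr7+ cells, against 163 and 103 CPM in Cxcr6+ cells (0.55, adjusted p = 0.0117), and Tesc had 129 and 101 CPM, against 99.5 and 35.5 CPM (0.77, adjusted p = 0.00581). All 5 genes were higher in both replicates, and for Tesc the replicates differ in how far. This fit rests on replicates 1 and 2 alone, and no other setting was run for it.

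Whether the genotype difference depends on the state was tested in the 10 sums of the GP66+ libraries. Of 8890 genes 0.225% were called, 0.0112% in the lower direction, and 0 of the 5 were, with edgeR as with DESeq2, while 2 of the 5 had an unadjusted p under 0.05. Tesc had a log2 difference of −1.59 ± 0.40 (unadjusted p = 0.000486, adjusted p = 0.135), the genotype gap being wider in Ccr7+ cells. It passed with no filter on low counts (adjusted p = 0.0173) and with cells of at least 1000 genes (0.0255), and its adjusted p over all alternatives ran from 0.0173 to 1. Cd2ap had −2.20 ± 0.80 (unadjusted p = 0.0111, adjusted p = 0.679), and the other 3 genes had differences of −0.94 to 0.27 with adjusted p of 0.979 or more.

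Another state, cells with a Cxcr5 UMI and neither of the other transcripts, separates the genes further. Cxcr5 is the receptor that brings follicular helper cells to B cells, and these values, looked at after the others were seen, are given with no test. In the Thpok-sufficient and wild type GP66+ libraries of day 7, Smco4 had 299 and 258 CPM in Cxcr5+ cells, against 124 and 139 CPM in Cxcr6+ cells, with Ccr7+ cells between. The CD4-like cells of the total libraries showed the same order, with 388 and 264 CPM in Cxcr5+ and 163 and 103 CPM in Cxcr6+ cells of replicates 1 and 2. Tesc followed it too, at 134 and 164 CPM in Cxcr5+ cells of the GP66+ libraries and 161 and 138 CPM in those of the total libraries, against 60.8 and 64.0 CPM and 99.5 and 35.5 CPM in Cxcr6+ cells. Smco4 and Tesc were thus highest in Cxcr5+ cells in all 4 libraries, although for Tesc the counting intervals of Cxcr5+ and Ccr7+ cells meet in the Thpok-sufficient library and in both total libraries.

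Trib2 had 33.3 and 27.0 CPM in Cxcr5+ cells of the Thpok-sufficient and wild type GP66+ libraries, against 30.4 and 28.7 CPM in Cxcr6+ cells. Its Cxcr5+ level was there close to the Cxcr6+ level and below the Ccr7+ level. In the CD4-like cells of the total libraries the Cxcr5+ values, 43.5 and 53.1 CPM, lay between those of Ccr7+ and Cxcr6+ cells. Ccdc141 had 11.1 and 18.3 CPM in Cxcr5+ cells of the GP66+ libraries, below the Ccr7+ cells, and was lowest in Cxcr6+ cells in all 4 libraries. Cd2ap had 23.1 and 17.4 CPM in Cxcr5+ cells, near its Ccr7+ levels of 23.5 and 19.0 CPM, and was lowest in Cxcr6+ cells in all 4 libraries as well. The ratio of Cxcr5+ to Cxcr6+ cells had a counting interval that holds 1 for Cd2ap in replicate 2 of the total cells (1.83, 0.644 to 5.21) and for Ccdc141 in replicate 1 (2.37, 0.956 to 6.39). Thpok-deleted libraries held 17 Cxcr5+ cells at day 7 and 9 at day 30, too few to place any of the genes.

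**Figure D4:**
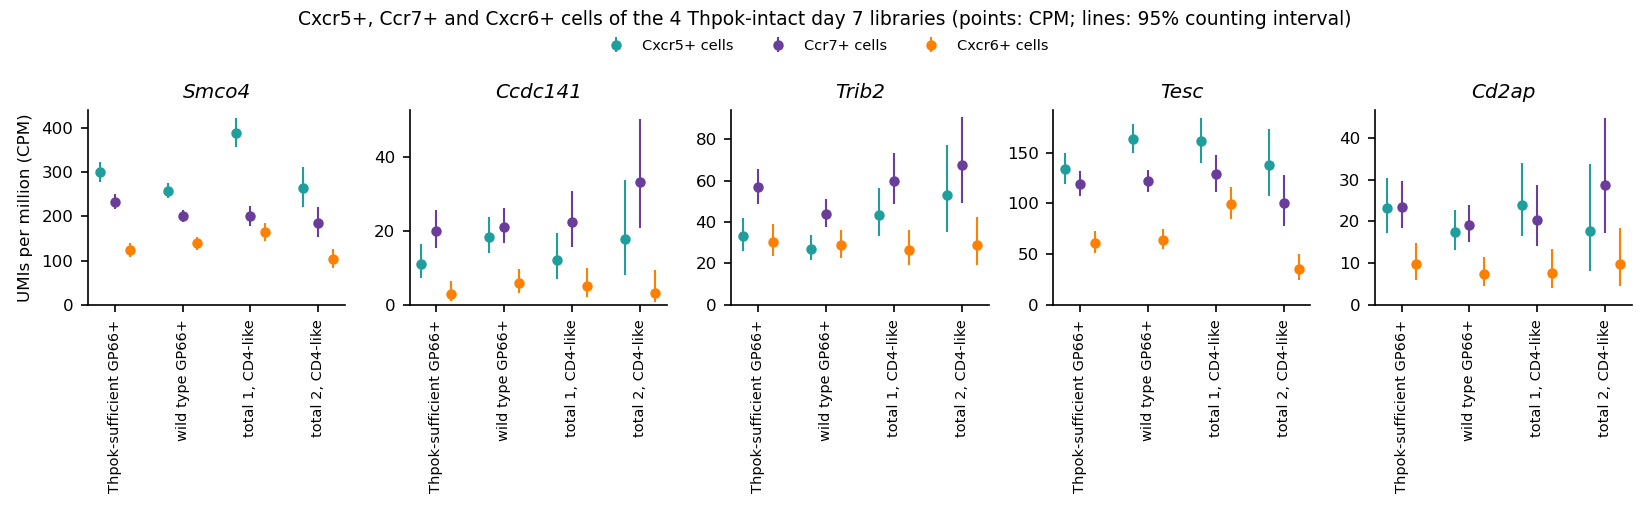
Level of each gene in CPM in Cxcr5+ (teal), Ccr7+ (purple) and Cxcr6+ (orange) cells of the 4 day 7 libraries with intact Thpok, the total libraries being limited to CD4-like cells; lines are 95% counting intervals. Smco4 and Tesc peak in Cxcr5+ cells of all 4 libraries, and Ccdc141 and Cd2ap are lowest in Cxcr6+ cells.

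Genes with the most similar pattern were ranked by Pearson's r of log2 levels over 9 sums, the 5 GP66+ libraries and the CD8-like and CD4-like cells of the total libraries, which share libraries and depth. The GP66+ libraries are those on which the 5 genes were chosen, so part of each pattern was fixed by the choice. The r values, also those among the 5 genes, are thus a description with no test. For Smco4 these were Fam134b (0.989), 1500011K16Rik (0.984) and Cxcr5 (0.982), and for Tesc they were Ehd3 (0.997), Tox2 (0.990) and Cxcr5 (0.983). Cxcr5 and Tox2 are follicular helper genes. For Ccdc141 they were Ccdc9 (0.990), A230046K03Rik (0.983) and Sgms1 (0.975), and for Trib2 they were Tle3 (0.987), Sgms1 (0.985) and Ccdc9 (0.981). Cd2ap was nearest to Trib2 (0.967), Tle3 (0.956), a Groucho family corepressor, and the ribosomal protein gene Rps18 (0.953). Among the 5 genes r was 0.975 for Smco4 with Tesc and 0.975 for Ccdc141 with Trib2, but 0.699 for Ccdc141 with Tesc.

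Among relatives and partners of the 5 genes, Trib1 had the direction of Trib2 in 4 of 5 contrasts, while Cd48 and Ppp3ca passed the test between CD8-like and CD4-like cells in the direction opposite to Cd2ap and Tesc. The counts for CD8-like cells stand beside 18.8% of all genes called higher and 19.5% called lower. In the list of Tribbles pseudokinases and COP1 partners, 1 of 14 tested genes passed the test as higher in CD8-like than in CD4-like cells. Another 5 passed as lower, Trib2 itself among them (median log2 fold change of the list −0.33). Trib1, the close relative of Trib2, was among the lower ones, named here after its value was seen (−1.001 ± 0.24 (SE), adjusted p = 0.000228, edgeR). Trib1 was also lower in Thpok-deleted cells (−1.70 ± 0.17, adjusted p = 0.0389), higher at day 30 (0.84 ± 0.17, adjusted p = 0.0278) and higher in Ccr7+ cells (0.83 ± 0.22, adjusted p = 0.0164). In GP66+ against total CD4-like cells, however, Trib1 was higher (1.89 ± 0.18, adjusted p = 0.0294), where Trib2 had −0.21 ± 0.22 and was not called. In the list of CD2 and CD2AP adaptors, 6 of 12 tested passed as higher in CD8-like cells. Another 2 passed as lower, Cd2ap itself among them (median log2 fold change of the list 0.22). Cd48, the ligand of CD2 in mice, was higher in CD8-like cells (1.34 ± 0.06, adjusted p = 1.62e-56) and in Thpok-deleted cells (1.30 ± 0.14, adjusted p = 0.0389), lower at day 30 (−1.25 ± 0.15, adjusted p = 0.0122) and lower in Ccr7+ cells (−1.18 ± 0.13, adjusted p = 1.13e-05), opposite in direction to Cd2ap in each. Cd2 itself was higher in CD8-like cells (0.39 ± 0.06, adjusted p = 4.79e-10).

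Of calcineurin subunits, homologues and NHE1 partners, 3 of 11 tested passed as higher in CD8-like cells and 1, Tesc, as lower (median log2 fold change 0.07). Ppp3ca, a catalytic subunit of calcineurin, was higher in CD8-like cells (1.26 ± 0.09, adjusted p = 4.30e-28) and lower in Ccr7+ than in Cxcr6+ cells (−1.39 ± 0.19, adjusted p = 9.82e-05, edgeR), the reverse of Tesc in both. Its log2 fold change in Thpok-deleted cells was 1.65 ± 0.26 (adjusted p = 0.0644). Of the centrosome and coiled-coil genes listed beside Ccdc141, 1 of 11 tested passed as higher in CD8-like cells and 2 as lower, Ccdc141 among them. Nde1 and Ndel1, paired centrosomal proteins of neuronal migration, went in opposite directions with day (−0.99 ± 0.17, adjusted p = 0.0211, and 0.91 ± 0.14, adjusted p = 0.0172). Of the 4 genes named Smco, Smco4 alone had counts enough to be tested. Without either Thpok-deleted library, or without the Thpok-sufficient library of day 30, no gene of these lists passed the test of genotype or of day, since edgeR then called 0 genes of the whole table in both.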

How the data were processed

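Single-cell RNA was measured in 7 libraries by 10x 3' capture (v2 kit, per the labels' protocols). The authors deposited UMI counts per gene and barcode, not normalized. The submitters' processing notes name bcl2fastq 2.17, Cell Ranger (version not given in the sources used here) and mm10. In each well the cutoff was set at 10% of the 99th percentile of UMIs among the top 3000 barcodes; cells also needed 500 genes or more and no more than 10% mitochondrial UMIs. Cells were clustered with scanpy 1.11.5, and B-like and myeloid-like clusters were left out. No doublet caller was used, and cells with UMIs of both Cd4 and a Cd8 gene entered neither class. Sums of counts per library and class entered edgeR 4.0.16 in R 4.3.3 (quasi-likelihood test, TMM, filterByExpr, Benjamini-Hochberg over all genes tested, threshold 0.05). The library was a block where classes of 1 library were compared, the classes being drawn from the same capture wells (1 per library, and 3 for replicate 1 of the total cells). The scripts were tested on simulated data. DESeq2 1.42.0, RLE size factors, no filter, at least 1000 genes per cell, B-like and myeloid-like cells kept, other class definitions, CD4-like cells alone and leaving out each library were the alternatives. Of each list of relatives, up to 4 genes past the threshold with the largest changes and at least 20 CPM could be named. Patterns were compared over genes of at least 20 CPM on average, as log2(CPM + 5). Gene coordinates are GENCODE vM21, and all 5 genes matched by symbol. The genes and lists were chosen with earlier results of these data known.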

Additional observations from a re-analysis of the deposited data

Results flagged for a closer look

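Cd2ap differed in direction between the genotypes when Ccr7+ cells were set against Cxcr6+ cells. Both Thpok-deleted libraries had less in Ccr7+ cells, and all 3 libraries with Thpok had more. The counting interval of the ratio held 1 in the Thpok-deleted libraries of day 7 (0.0685 to 2.33) and day 30 (0.0099 to 3.47). It also held 1 in the Thpok-sufficient library of day 30 (0.52 to 6.76, from 15 and 4 UMIs). The test of this difference gave a log2 value of −2.20 ± 0.80 (SE; unadjusted p = 0.0111, adjusted p = 0.679 by edgeR's quasi-likelihood test), which did not pass the threshold, and the Thpok-deleted Ccr7+ cells held 2 UMIs at day 7 and 1 at day 30.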

How the results depend on the processing

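The 5 calls between CD8-like and CD4-like cells were made under each of the 7 alternatives run, with 3903 genes called in the whole table, 1380 with DESeq2 and 1148 with no replicate block. Leaving out a library left no residual degree of freedom there or in the test of genotype by day, and was not run. GP66+ against total CD4-like cells called 0 of the 5 genes throughout, while the whole table gave 53, 211 with DESeq2 and 675 with no filter on low counts. For Thpok-deleted against Thpok-sufficient cells the count past the threshold was 5 with DESeq2, 5 with no filter and 1 with at least 1000 genes per cell (96, 466 and 792 in the whole table as reported, with DESeq2 and with no filter), and 0 to 5 with 1 library left out: 5 without wild type cells, 1 without the day 7 Thpok-sufficient library, and 0 without any 1 of the other 3. For day 30 against day 7 it was 1 with at least 1000 genes per cell (597 of the whole table against 2356; 825 in CD4-like cells alone) and 0 to 3 with 1 library left out. For Ccr7+ against Cxcr6+ cells it was 3 with DESeq2 (515 of the whole table against 940), 0 with no replicate block (4) and 1 to 5 with 1 library left out. For genotype by state it was 1 with no filter (42 of the whole table against 20; 11 with DESeq2) and 1 with at least 1000 genes per cell, Tesc in both. Genotype by day gave 0 of the whole table, 6 with DESeq2 and 15 with no filter. Signs turned only in differences that did not pass the test. With 1 library left out, GP66+ against total CD4-like cells ran from −0.071 to 0.39 on the log2 scale for Smco4, −0.26 to 0.11 for Ccdc141, −0.53 to 0.040 for Trib2, −0.075 to 0.60 for Tesc and −0.16 to 0.38 for Cd2ap, day 30 against day 7 ran from −0.51 to 0.18 for Tesc, and genotype by state from −0.85 to 0.22 for Trib2. Trib2 turned to 0.37 in genotype by day with at least 1000 genes per cell. Leaving out libraries removes residual degrees of freedom; otherwise the cause was not tested. Depth limits Ccdc141 and Cd2ap most, with 22 to 57 UMIs per Thpok-deleted library.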
